A study of Saccharomyces cerevisiae with 16 samples.

Results

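The outermost open reading frames (ORFs) of the yeast chromosomes were followed across 3 strains, glucose loss and a translation inhibitor. On each of the 32 chromosome arms of Saccharomyces cerevisiae, the 10 ORFs with the highest systematic numbers were taken, since these numbers grow from the centromere to the telomere. Of 18 ids that the choice left out, 16 lay among these places, so that 304 of the 6034 ORFs with ids of this form were described. RefSeq annotates 260 of them on build R64, at a median of 11.6 kb and at most 40.9 kb from the chromosome end, and 44 ids are named here by id only. The rule itself uses no expression value, though it was set with earlier results of these data known.

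Strand-specific total RNA was sequenced from 16 libraries in 8 groups of 2 biological replicates, all MATa his3Δ1 leu2Δ0 met15Δ0 ura3Δ0. Cells had been grown in glucose and were then held for 16 min either in medium with glycerol and ethanol in its place (starved) or in glucose. Wild-type cells (WT, strain YAM1) next received 100 µg/ml cycloheximide (CHX) or the solvent DMSO, which gave the groups WT starved, WT starved CHX, WT CHX and WT glucose. Strains lacking UPF1 (upf1Δ::kanMX4) or XRN1 (xrn1Δ::kanMX4), for which no drug or solvent is named, gave the groups upf1Δ starved, upf1Δ glucose, xrn1Δ starved and xrn1Δ glucose.

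The ends of yeast chromosomes carry repeated X and Y′ elements and gene families that differ in number between strains, such as the COS genes, the PAU seripauperins and the flocculins, along with genes for the uptake of sugars, metals and vitamins. Chromatin there is held silent by the Sir proteins, which spread inward from the telomere, and by further histone deacetylases. Upf1 is the RNA helicase of nonsense-mediated decay, which removes mRNAs on which ribosomes stop too early, and it needs translation. Xrn1 is the cytoplasmic exonuclease that degrades decapped RNA from its 5′ end, and cycloheximide halts ribosomes on the mRNA.

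3 neighbouring pairs among the members are parts of a longer frame that a stop codon interrupts, and their RNA is described further on. The first set shows, on R64, the stop codon of each upstream ORF, in capitals, with its surroundings. For YOL163W, at chrXV:10092-10133 on the plus strand, the start codon of YOL162W is also in capitals. For NFT1 (chrXI:656719-656748, plus strand) and BSC5 (chrXIV:761111-761140, minus strand), 15 bases before and 12 bases after the stop are shown.
YOL163W to YOL162W: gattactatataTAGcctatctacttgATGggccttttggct
NFT1 stop: ataatgaaggcctcaTAGttggatgcgggg
BSC5 stop: cttaaaaagaaacacTAGtctgaagaagat

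In each pair the stop was a TAG, the downstream ORF lay in the same frame, and no further stop codon stood between them in that frame. The bases between stop and next start numbered 12 for YOL163W and YOL162W, 99 for NFT1 and YKR104W, and 237 for BSC5 and YNR068C.

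The second set shows sequences upstream of 3 members that changed strongly, from 250 to 101 bases before the ORF, on the plus strand: DSF1 at chrV:19339-19488, STL1 at chrIV:1507755-1507904 and ZRT1 at chrVII:20728-20877. Capitals mark a stress response element (AGGGG, either strand) in DSF1 and STL1, and a match to the binding site of the zinc regulator Zap1, searched on either strand, in ZRT1.
DSF1: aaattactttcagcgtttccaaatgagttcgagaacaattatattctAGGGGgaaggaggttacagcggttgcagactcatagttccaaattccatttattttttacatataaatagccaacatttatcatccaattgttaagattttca
STL1: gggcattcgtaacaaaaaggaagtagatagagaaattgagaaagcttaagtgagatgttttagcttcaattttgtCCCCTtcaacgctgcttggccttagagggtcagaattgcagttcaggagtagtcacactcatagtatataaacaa
ZRT1: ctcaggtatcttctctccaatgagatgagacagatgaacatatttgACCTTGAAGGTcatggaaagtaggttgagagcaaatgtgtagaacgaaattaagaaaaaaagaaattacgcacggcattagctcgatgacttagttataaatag

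The Zap1 site occurred in the window of 3 ORFs, or 0.0532% of 5636 windows of this length, and ZRT1 was the one member among them. AGGGG occurred in 12% of the 259 member windows and in 12.7% of all. It was not found in the windows of JEN1 and HXK1, nor were Mig1-like letters, which stood in 7.34% of member windows and 6.74% of all. The Mig1-like letters searched, on either strand, were GCGGGG and its variant GTGGGG, along with the variant CCGGGG and the variant CTGGGG.

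The third set shows why many outermost ORFs cannot be read one by one. The first 60 bases of the seripauperin ORFs PAU6 (chrXIV:781918-781977, plus strand), PAU1 (chrX:9079-9138, minus strand) and PAU14 (chrIX:9096-9155, minus strand) are given, with capitals in PAU6 for its 2 differences from PAU1.
PAU6: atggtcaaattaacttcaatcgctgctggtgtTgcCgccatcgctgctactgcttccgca
PAU1: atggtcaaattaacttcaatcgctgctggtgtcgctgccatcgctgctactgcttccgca
PAU14: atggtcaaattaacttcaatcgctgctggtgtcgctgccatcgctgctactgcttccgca

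All levels are the authors' normalized reads per nucleotide of a feature. They were compared as log2(level + 0.00364) with limma over 11606 features, and an adjusted p under 0.05 (Benjamini-Hochberg) was called. By the size of the smallest step between values, 6.65 to 32.7 megareads lay on single-exon ORFs in a library, and the added constant equals 3.29 to 13.8 reads per kb, so a fitted fold understates changes of the lowest ORFs. UPF1 itself read 0.0093 to 0.0152 in upf1Δ libraries, against 0.323 to 2.60 elsewhere, and XRN1 read 0.0693 to 0.0858 in xrn1Δ libraries, against 0.513 to 3.13 elsewhere. How libraries were scaled to each other is not given in the sources used here, so directions are given for the values as deposited. In these values the added spike-in RNAs summed to 305 to 317 in each of the 16 libraries, so their total was nearly equal. When protein-coding genes were used to scale the libraries, the median log2 change over every feature tested moved by -1.84 for CHX in glucose, by -1.05 for CHX in starvation, by -1.88 for xrn1Δ, by 0.28 for starvation in WT and by 0.51 for starvation in upf1Δ. For upf1Δ in glucose it moved by -0.06. The 4 CHX libraries carry another prefix in the column headers than the other 12, so the drug and whatever this prefix marks cannot be told apart.

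The members' median levels were low, and lowest toward the very end. These medians include 110 ORFs of mostly repeated sequence, treated below, and 44 ids that are not annotated. The library medians over the 304 members averaged 0.0142 ± 0.0002 in WT starved, 0.0528 ± 0.0079 in WT starved CHX, 0.0837 ± 0.0094 in WT CHX, 0.0256 ± 0.0001 in upf1Δ starved, 0.0399 ± 0.0027 in upf1Δ glucose, 0.115 ± 0.009 in xrn1Δ starved, 0.0961 ± 0.0064 in xrn1Δ glucose and 0.0137 ± 0.0014 in WT glucose (SD, n = 2 each). The 5712 other ORFs had medians of 0.171 ± 0.006 in WT starved, 0.227 ± 0.032 in upf1Δ glucose, 1.02 ± 0.07 in xrn1Δ glucose and 0.218 ± 0.007 in WT glucose. In each library the members' median was thus a small share of that of other ORFs. This share was 16.7% and 18.6% in upf1Δ glucose, 16.1% and 16.9% in upf1Δ starved, 9.39% and 9.47% in xrn1Δ glucose, 8.39% and 8.22% in WT CHX, 8.15% and 8.39% in WT starved, and 5.98% and 6.60% in WT glucose. The upf1Δ libraries had the highest shares of the 16 libraries and the WT glucose libraries the lowest. In bulk RNA, a lower level in each cell and fewer cells that express an ORF cannot be told apart.

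**Figure D1:**
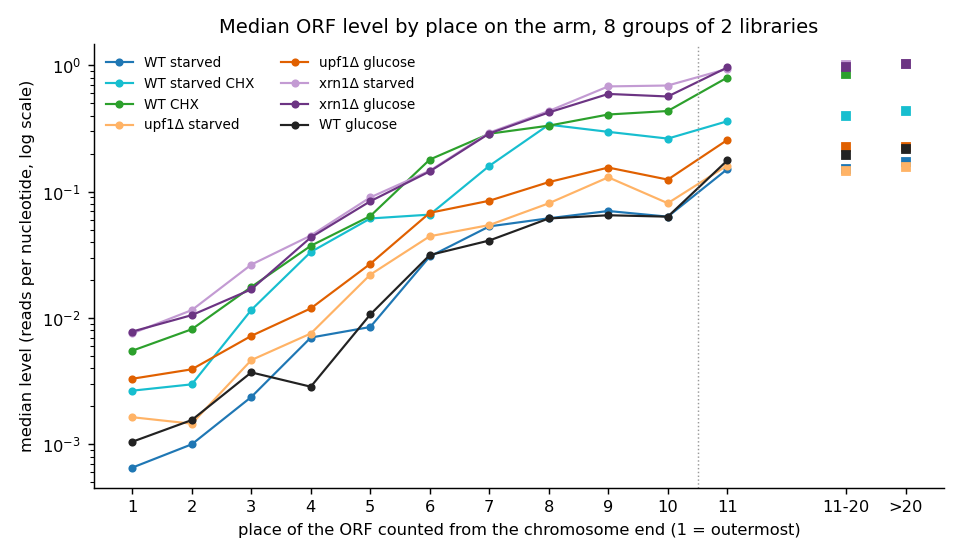
Median level (reads per nucleotide, log axis) of the ORFs at each place from the chromosome end, from group means of 2 libraries, with lines for the 8 groups and squares for ORFs further inward. Each of the 8 lines is higher at the 10th place, 0.0634 in WT glucose, than at the outermost one, 0.00105 in WT glucose.

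Levels climbed inward, if not at each place. In WT glucose the median was 0.00105 for the outermost ORF of an arm, 0.0107 at the 5th place, 0.0634 at the 10th, 0.177 at the 11th, the first place outside the set, and 0.219 for ORFs beyond the 20th. In upf1Δ glucose the outermost place had a median of 0.0033 and the 10th 0.125, and in xrn1Δ glucose 0.00781 and 0.567. A steep slope was therefore present in all 3 strains. In WT CHX the same places had 0.00551 and 0.435.

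Repeated sequence was common at the very end of the arms. The share of 50-base windows found elsewhere in the genome had a median of 99% at the outermost place and 0 from the 7th place inward. It was above 50% in 42.3% of annotated members, that is 110 ORFs, and in 0.787% of the 5340 other ORFs with coordinates. How reads that match several places were counted is not given in the sources used here, so values of these 110 ORFs are uncertain. By group means, the 122 members without a repeated window had a median of 0.103 in WT glucose, against 0.218 for other ORFs. In upf1Δ glucose these medians were 0.205 and 0.227. Of the 23 members listed at 0 in each of the 16 libraries, 13 are annotated, among them PAU1 and PAU14, and 9 of the 13 were repeated over their whole length. The sequences above show the case: PAU1 and PAU14 begin with the same 60 bases, and both are listed at 0. In all, 237 members passed the filter on low values (a mean at or above the added constant) and were tested, of which 71 were over 50% repeated and 21 are not annotated. A further 67 did not pass, and nothing is claimed of them.

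A few members were abundant. HXK1, which encodes a hexokinase and lies 15.1 kb from the right end of chromosome VI, had the highest mean over the 16 libraries, 15.3, followed by the dihydroorotate dehydrogenase gene URA1 (13.4), the zinc transporter gene ZRT1 (7.17), MSC1 (6.84) and the D-lactate dehydrogenase gene DLD3 (6.58). All of these lie from the 5th to the 10th place. The lowest annotated members tested were the Y′ ORFs YIL177C, YHR219W and YBL112C with PAU20 and VBA5, each with a mean under 0.00469.

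Loss of Upf1 in glucose gave the widest gap between the median changes of members and other ORFs among the 7 comparisons. Of 237 members tested, 132 were higher in upf1Δ than in WT cells (55.7%) and 6 were lower (2.53%), where 32% of all features tested were higher and 9.96% lower. Among the 5652 other ORFs tested, 1078 were higher (19.1%) and 1054 lower (18.6%). The median log2 change was 0.85 for members, -0.09 for other ORFs and 0.18 for all features. These sets are described side by side; no test of their difference was made.

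**Figure D2:**
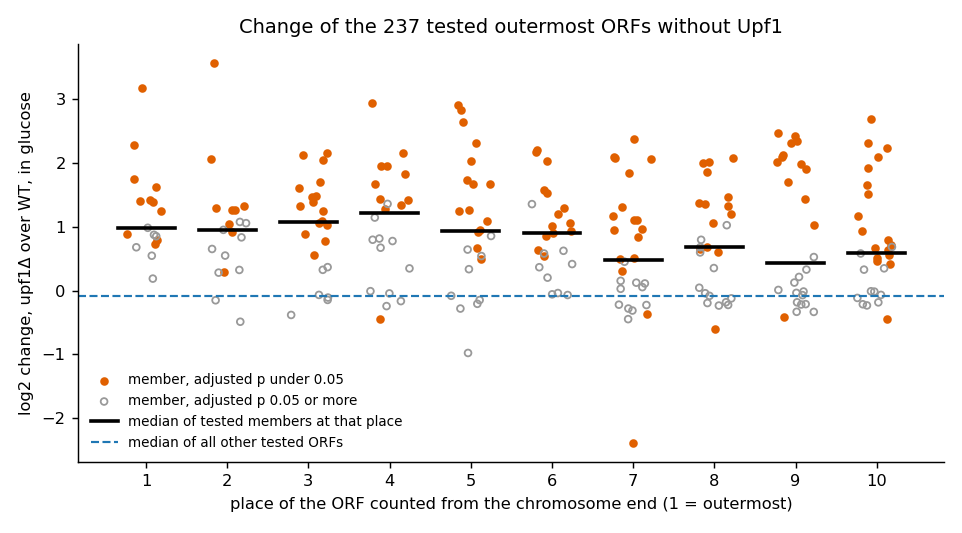
Log2 change of each tested member between upf1Δ and WT cells in glucose (y axis) by its place from the chromosome end (x axis), with filled points for calls, bars for the median of a place and a dashed line for the median of the other ORFs, -0.09. Medians of places 1 to 6 lie between 0.90 and 1.21, and those of places 7 to 10 between 0.43 and 0.68.

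The change faded inward. Of the 104 members tested at places 1 to 5, 61 were higher, with a median of 1.04, and of the 133 at places 6 to 10, 71 were higher, with a median of 0.63. At the 11th place 13 of 29 ORFs tested were higher (median 0.27), at places 11 to 20 it was 91 of 316 (0.01), and beyond the 20th 987 of 5336 (-0.10). Members were also set beside other ORFs of like mean level over the 16 libraries, a mean that includes the upf1Δ values. From the filter to 0.05, members had a median change of 0.79 (26 of 76 higher) and other ORFs one of 0.37 (69 of 395). Over all features, 32% were higher. With a mean level from 0.05 to 0.3, members had a median change of 1.27 (58 of 73 higher) and other ORFs one of 0.10 (311 of 985). From 0.3 to 1, the medians were 0.95 for members and -0.10 for other ORFs, and above 1 they were -0.06 for the 29 members and -0.17 for other ORFs. Among the 145 tested members that were at most 50% repeated, 89 were higher and the median was 0.90.

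Arms differed. All 9 members tested on the left arm of chromosome VII and all 8 on the right arm of XIV were higher, with medians of 2.03 and 1.52, as were 8 of 9 on the right arm of III (median 2.09). On the left arm of XIII none of 10 was higher by this test (median -0.07), and on the right arm of VI 1 of 9 was (median -0.11). These last 2 arms had the highest median levels in WT glucose, 0.604 and 0.404. Of the tested members, 72 of 108 were higher on the 15 arms without an annotated Y′ element (median 1.08) and 60 of 129 on the 17 arms with one (median 0.68). The median share of repeated windows of annotated members was 0 on the former arms and 71.1% on the latter, so these arms also differ in repeated sequence.

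YGL262W and COS12, the 2 ORFs nearest the left end of chromosome VII, showed the largest rises that the naming rule took. YGL262W, of unknown function, read 0.0512 and 0.0422 in upf1Δ, against 0.0013 and 0 in WT, a fitted log2 change of 3.56 ± 0.35 (SE; limma adjusted p = 4.0e-06) that depends on the added constant. COS12, which encodes a membrane protein of the COS family, read 0.221 and 0.185 in upf1Δ, against 0.0178 and 0.0204 in WT, a log2 change of 3.18 ± 0.17 (limma adjusted p = 5.1e-08). Neither ORF had repeated windows. That their libraries did not overlap was a condition of the naming rule. YEL073C, regulated by inositol and choline according to RefSeq, read 2.19 and 1.90 in upf1Δ, against 0.272 and 0.267 in WT (log2 change 2.90 ± 0.14). In xrn1Δ it read 0.955 and 0.706, so its highest glucose levels outside CHX were those of upf1Δ.

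YOL163W, YOL162W and YNR068C, from the interrupted frames shown at the start, were among the 6 largest rises that the naming rule took. BSC5, NFT1 and YKR104W were not. YOL163W read 0.460 and 0.403 in upf1Δ, against 0.0525 and 0.0532 in WT, and YOL162W downstream read 0.247 and 0.213, against 0.0282 and 0.0302. Their log2 changes were 2.94 ± 0.19 and 2.83 ± 0.19 (limma adjusted p = 1.5e-07 and 2.3e-07). RefSeq describes both as remnants of a sulfonate transporter gene. BSC5 and YNR068C, which RefSeq describes as a locus read through its stop codon (BUL3), changed by 2.42 ± 0.12 and 2.69 ± 0.17: YNR068C read 0.393 and 0.265 in upf1Δ, against 0.0436 and 0.0507 in WT. NFT1 and YKR104W, merged into 1 transporter gene in other strain backgrounds according to RefSeq, changed by 1.94 ± 0.15 and 2.05 ± 0.23. For YOL163W, YOL162W and YNR068C, both upf1Δ libraries above both WT libraries were a condition of naming. BSC5, NFT1 and YKR104W, chosen after their values were seen, had this order too.

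**Figure D3:**
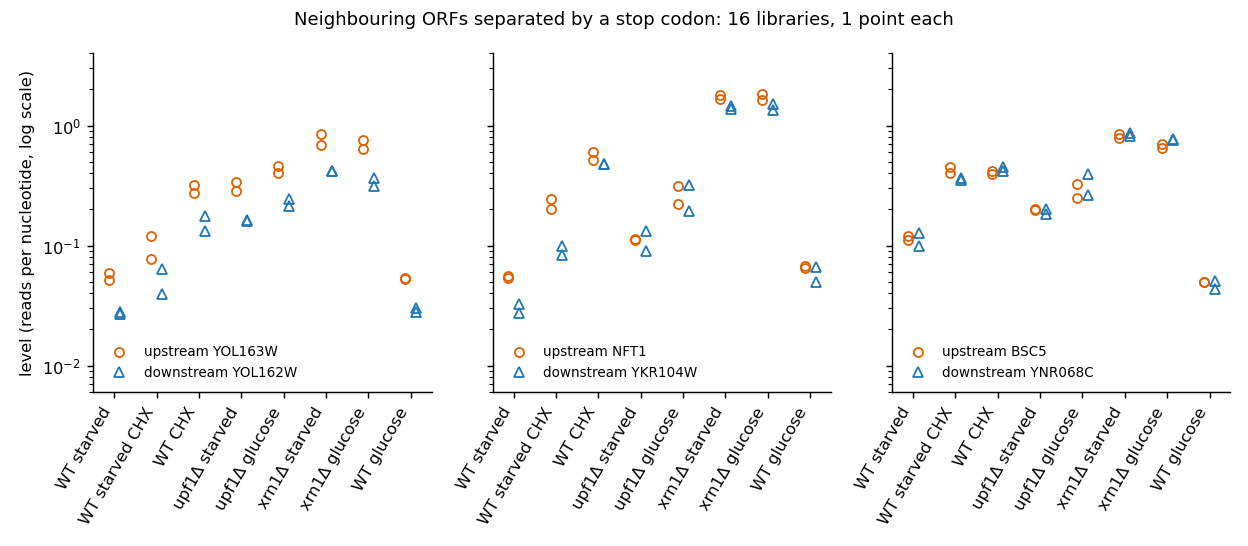
Level (reads per nucleotide, log axis) of the upstream ORF (circles) and the downstream ORF (triangles) of 3 interrupted frames in each of the 16 libraries, by group. The log2 ratio within a frame varies least for YOL163W and YOL162W (SD 0.10) and BSC5 and YNR068C (0.16), and more for NFT1 and YKR104W (0.43). Both upf1Δ glucose libraries lie above both WT glucose libraries for each of the 6 ORFs, which the naming rule required of YOL163W, YOL162W and YNR068C.

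The ORFs of 2 of the 3 frames kept a nearly fixed ratio. Over the 16 libraries the log2 ratio of upstream to downstream level had an SD of 0.10 for YOL163W and YOL162W, 0.16 for BSC5 and YNR068C and 0.43 for NFT1 and YKR104W. The 56 pairs of adjacent tested members on one strand, neither over 50% repeated, had a median SD of 0.62, and 6 of them were under 0.2, which NFT1 and YKR104W were not. NFT1 and FLO10, a separate ORF 3214 bases upstream, had a lower SD of 0.27. Another close pair was EMA35 and YCR099C on the right arm of III, which overlap by 29 bases (SD 0.10) and changed by 2.07 ± 0.14 and 2.09 ± 0.13 in upf1Δ. Their neighbours YCR101C and GIT1, a glycerophosphoinositol permease gene, changed by 2.37 ± 0.20 and 2.30 ± 0.17.

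The 6 members called lower in upf1Δ became 23 with protein-coding scaling and 1 with snoRNA scaling. The count was 13 with the replicate number as a block, 16 without upf1Δ glucose library 1 and 3 without library 2. PHO89, the sodium-phosphate symporter gene 14.7 kb from the right end of II, read 0.0340 and 0.0258 in upf1Δ, against 0.166 and 0.174 in WT, a log2 change of -2.38 ± 0.15 (limma adjusted p = 1.4e-07). It was low in upf1Δ starved too, 0.0298 and 0.0283, against 0.180 and 0.219 in WT starved. BAS1, a Myb-type activator of purine and histidine genes, fell by 0.60 on the log2 scale, IMD2 (IMP dehydrogenase) by 0.45, RTG3 by 0.44, the alcohol dehydrogenase gene ADH6 by 0.42 and the S-methylmethionine permease gene MMP1 by 0.36. PHO89 was the only one of the 6 whose fall was larger than 1 on this scale. With snoRNA scaling BAS1 (-0.51), IMD2 (-0.36), RTG3 (-0.35), ADH6 (-0.32) and MMP1 (-0.27) lost their calls. IMD2, RTG3 and MMP1 lost their calls without upf1Δ glucose library 2 (-0.34, -0.26 and -0.27), all 3 also without WT glucose library 2 (-0.47, -0.30 and -0.34), and IMD2 and MMP1 without WT glucose library 1 (-0.43 and -0.38).

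The lists of gene families are given against the same background, where 32% of all features were higher and 9.96% lower. Of 11 COS genes tested, 8 were higher in upf1Δ (median 0.55). COS6 read 1.45 and 1.30 in upf1Δ, against 1.05 and 1.19 in WT (0.30 ± 0.10), COS9 changed by 0.31 ± 0.11, COS7 by 1.41 ± 0.10 and COS10 by 1.70 ± 0.13. The calls of COS6 and COS9 did not hold when upf1Δ glucose library 1 (0.22 and 0.21) or WT glucose library 1 (0.21 and 0.24) was left out, and that of COS9 did not without WT glucose library 2 (0.38). Of 22 Y′ helicase ORFs that passed the filter, of 32, 13 were higher (median 1.05). YBL113C, 0.28 kb from the left end of II, read 0.139 and 0.0932 in upf1Δ, against 0.0271 and 0.0358 in WT (1.75 ± 0.20). YHL050C and YPR202W changed by 1.41 ± 0.19 and 1.03 ± 0.20, and these Y′ ORFs were 80.0% to 87.7% repeated. Of 11 seripauperin genes tested, of 18, 6 were higher (median 1.36), such as PAU6 by 1.27 ± 0.31, PAU12 by 1.61 ± 0.43 and PAU3 by 2.32 ± 0.35. No COS, Y′ or PAU member that passed the filter was called lower, while COS4 (-0.31), COS1 (-0.01) and PAU13 (-0.98), chosen after their values were seen, had negative changes without a call.

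Among surface, uptake and nutrient lists, again beside 32% higher and 9.96% lower over all features, some members were higher and others were not called. Of 5 flocculin and cell wall members tested 3 were higher: FLO5 read 0.315 and 0.236 in upf1Δ, against 0.0648 and 0.0553 in WT (2.12 ± 0.15), and FLO10 changed by 1.73 ± 0.14, while CSS1 read 0.011 and 0.00953 in upf1Δ, against 0.0101 and 0.0107 in WT. Of 5 iron uptake members 3 were higher, the ferric reductase gene FRE2 by 2.19 ± 0.15 and the siderophore transporter genes ARN2 by 1.83 ± 0.15 and ENB1 by 1.44 ± 0.11. Among 12 phosphate, sulfate, metal and arsenic members 9 were higher and PHO89 was lower. The cadmium-exporting ATPase gene PCA1 changed by 1.36 ± 0.14, the sulfatase gene BDS1 by 2.15 ± 0.14 and the arsenic regulator gene ARR1 by 0.90 ± 0.13. Of 11 thiamine and vitamin B6 members 7 were higher (median 0.86), with THI11 at 1.11 ± 0.20 and SNO2 at 0.86 ± 0.28. SNO2 lost its call without upf1Δ glucose library 1 (0.68) or without WT glucose library 1 (0.93) or 2 (0.78). The sulfate permease gene SUL1, which stands on both of these lists, had a change of -0.21 ± 0.14 and no call. Of 12 carbon source members tested 6 were higher, such as the aryl alcohol dehydrogenase gene AAD3 by 1.33 ± 0.15 and the isomaltase gene IMA5 by 1.70 ± 0.21.

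Zinc-regulated members near the ends of VII and XV were higher without Upf1, with libraries that disagreed. ZRT1 read 8.24 and 3.69 in upf1Δ, against 0.948 and 1.03 in WT (log2 change 2.47 ± 0.37). ADH4, an alcohol dehydrogenase gene of the same arm, read 1.30 and 0.756, against 0.349 and 0.366 (1.46 ± 0.22). VEL1 and YOR387C changed by 2.03 ± 0.42 and 2.34 ± 0.34. These 4 were grouped after their values were seen. In each of the 4, library 1 of upf1Δ glucose was above library 2, and the xrn1Δ glucose libraries of ZRT1 differed likewise, 20 and 11.

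The RNAs of genes that act in silencing did not move one way. Of 22 genes for Sir proteins, telomere-binding proteins, deacetylases and other silencing factors, 7 were higher and 8 lower in upf1Δ (median -0.15). The background was 32% and 9.96%. SIR2 changed by -0.81, SIR4 by -0.48 and RIF1 by -0.76, while RIF2 changed by 1.09. SIR3 had a change of -0.22 that was not called. SIR1, itself a member on the right arm of XI, read 0.0943 and 0.0855 in upf1Δ, against 0.0427 and 0.0481 in WT (0.93 ± 0.15). The silent mating cassette ORFs HMLALPHA1 and HMLALPHA2 did not pass the filter: HMLALPHA2 was listed at 0 in every library and HMLALPHA1 above 0 in 1 of the 16.

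Glucose loss changed fewer members of WT cells, but some of them by far. Between WT starved and WT glucose 33 of 237 members were higher and 47 lower, 13.9% and 19.8%, where 10% and 33.5% of all features were. Of other ORFs 579 were higher and 2992 lower of 5652, and the median changes were -0.08 for members and -0.42 for other ORFs. Scaled to protein-coding genes, 77 members were higher and 29 lower, and scaled to snoRNAs 35 and 2.

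The gene for the lactate and pyruvate transporter, JEN1, 22.2 kb from the left end of XI, rose most. JEN1 read 0.891 and 0.691 in WT starved, against 0.0344 and 0.0333 in WT glucose, a log2 change of 4.39 ± 0.14 (limma adjusted p = 8.8e-10). HXK1 read 10.4 and 8.99, against 1.62 and 1.74 (2.52 ± 0.18). DSF1, a putative mannitol dehydrogenase gene, read 0.0340 and 0.0236, against 0.00364 and 0.00303 (2.2 ± 0.20), though 58.5% of its windows are repeated, a share that its paralogue MAN2 has too. STL1, the glycerol-proton symporter gene, read 0.0371 and 0.0256, against 0.00472 and 0.00587 (1.95 ± 0.18). Also higher were YPS5, similar to cell surface aspartic proteases, by 1.85 ± 0.22, YER181C, which overlaps a Ty1 repeat, by 1.72 ± 0.37, and MSC1, a nuclear envelope protein gene of DNA repair, by 1.67 ± 0.15. Starved and glucose libraries that do not overlap were a condition of naming here, save for MSC1, which the rule did not take in this comparison. Over the 8 group means, the pattern of JEN1 was most like those of HXK1 (Pearson r = 0.92), DSF1 (0.91) and YML131W (0.89), a description over groups that share controls. The interrupted frame of BSC5 and YNR068C was higher too, by 1.15 ± 0.12 and 1.2 ± 0.17.

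**Figure D4:**
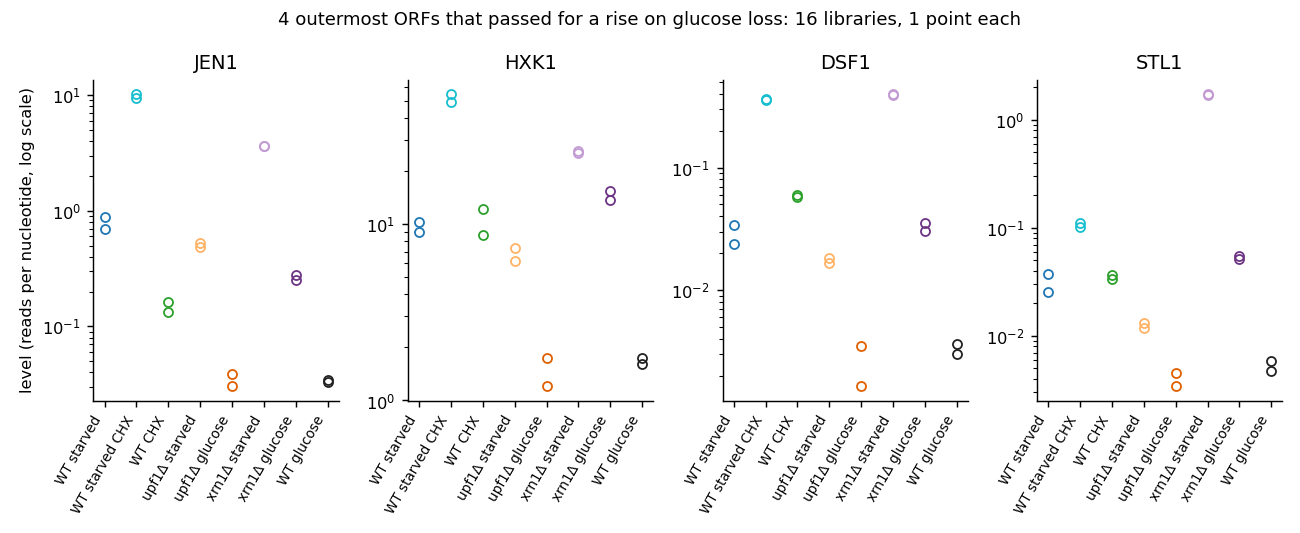
Level (reads per nucleotide, log axes that differ between panels) of JEN1, HXK1, DSF1 and STL1 in each of the 16 libraries, by group. Starved libraries lie above glucose libraries in all 3 strains and with CHX, and STL1 is highest in xrn1Δ starved, at 1.73 and 1.70.

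Members that fell on glucose loss in WT included BAS1, which read 0.0735 and 0.0617 in WT starved, against 0.160 and 0.162 in WT glucose (-1.21 ± 0.15). PGA3, a putative cytochrome b5 reductase gene, changed by -1.10 ± 0.10, the Rho1 GTPase-activating protein gene LRG1 by -1.04 ± 0.14 and GAB1, a subunit gene of the GPI transamidase, by -0.99 ± 0.11. PAU6 and YEL075C, both repeated over their whole length, changed by -1.15 ± 0.31 and -1.05 ± 0.34, and YEL075C lost its call when WT starved library 1 or WT glucose library 1 was left out (-0.81 and -0.89), as did PAU6 without WT starved library 2 (-1.07). With snoRNA scaling LRG1 (-0.65), GAB1 (-0.59), PAU6 (-0.80) and YEL075C (-0.84) lost their calls.

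In upf1Δ cells, JEN1, HXK1 and DSF1 had the largest rises on glucose loss, as in WT. Between upf1Δ starved and upf1Δ glucose 9 members were higher and 127 lower (3.80% and 53.6%), where 4.29% and 50.8% of all features were. JEN1 read 0.528 and 0.482 in upf1Δ starved, against 0.0384 and 0.0303 in upf1Δ glucose (3.75 ± 0.14), HXK1 changed by 2.22 ± 0.18, DSF1 by 1.78 ± 0.20, MSC1 by 1.18 ± 0.15, STL1 by 1.09 ± 0.18 and BDH2 by 1.02 ± 0.13. The largest falls were those of the fluoride exporter gene FEX2 (-1.58 ± 0.28), LRG1 (-1.52 ± 0.14), GAB1 (-1.47 ± 0.11), YER189W (-1.46 ± 0.36), PAU12 (-1.38 ± 0.43) and YLR462W (-1.30 ± 0.36). PAU12 and YLR462W lost their calls without upf1Δ starved library 1 (-0.95 and -1.18) or upf1Δ glucose library 1 (-1.29 and -1.06). FEX2, YER189W and YLR462W were 79.4%, 97.2% and 91.1% repeated, so their values are uncertain. With protein-coding scaling, 29 members were higher and 33 lower, and YER189W (-1.03), PAU12 (-0.92) and YLR462W (-0.93) lost their calls.

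In xrn1Δ cells STL1, JEN1 and DSF1 had the largest rises on glucose loss. Between xrn1Δ starved and xrn1Δ glucose 10 members were higher and 0 lower by limma (29 and 2 at an unadjusted p under 0.05), against 2.8% and 0.233% of all features. The 10 became 23 with protein-coding scaling, 23 with the compared groups alone, 16 with the replicate number as a block, and 6 to 7 when a library was left out. STL1 read 1.73 and 1.70 in xrn1Δ starved, against 0.0549 and 0.0520 in xrn1Δ glucose (4.91 ± 0.18, limma adjusted p = 7.9e-09). JEN1 read 3.64 in both xrn1Δ starved libraries, against 0.276 and 0.252 in xrn1Δ glucose (3.77 ± 0.14), and DSF1 read 0.392 and 0.396, against 0.0301 and 0.0354 (3.45 ± 0.20). BDH2, a dehydrogenase gene, changed by 1.45 ± 0.13, YML131W by 1.31 ± 0.12 and MSC1 by 1.31 ± 0.15. HXK1 read 26.0 and 25.4 in xrn1Δ starved, against 15.4 and 13.8 in xrn1Δ glucose (0.82 ± 0.18), a call lost when any of the 4 libraries was left out.

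Tests of the difference between responses singled out a few members. STL1 rose further on glucose loss in xrn1Δ than in WT, by 2.96 ± 0.26 on the log2 scale (limma adjusted p = 1.9e-05), and DSF1 by 1.25 ± 0.28. GAB1 differed by 1.02 ± 0.15, with a fall in WT (-0.99) and a change of 0.03 without a call in xrn1Δ. HXK1 (-1.70 ± 0.25), YCR101C (-1.26 ± 0.28) and YPS5 (-1.22 ± 0.31) had lower changes in xrn1Δ than in WT. Of the members tested 27 had a higher and 12 a lower signed log2 change in xrn1Δ than in WT, 11.4% and 5.06%, where 20.3% and 3.39% of all features did. On the protein-coding scale these counts were 18 and 41, and on the snoRNA scale 1 and 7. DSF1 lost its call on both scales (0.44 and 0.80) and with an added constant 10 times smaller (0.61), GAB1 on the snoRNA scale (0.47), and YPS5 without WT glucose library 1 (-1.12).

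Between upf1Δ and WT, 28 members had a lower signed log2 change on glucose loss in upf1Δ and 0 a higher one by limma (82 and 0 at an unadjusted p under 0.05), where 4.81% and 0.0948% of all features did. The strongest were YPS5 (-2.19 ± 0.31), YCR101C (-2.18 ± 0.28) and YNR068C (-1.93 ± 0.24). YCR101C read 0.109 and 0.0746 in upf1Δ starved, 0.155 and 0.143 in upf1Δ glucose, 0.0933 and 0.0653 in WT starved, and 0.0227 and 0.0291 in WT glucose. Its WT starved libraries thus lay above WT glucose and its upf1Δ starved libraries below upf1Δ glucose. The number of members called lower was 10 without WT starved library 1 and 53 without upf1Δ glucose library 2.

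Cycloheximide in glucose went with higher levels of nearly everything measured. Of 237 members 218 were higher in WT CHX than in WT glucose and 0 lower by limma (219 and 0 at an unadjusted p under 0.05), 92.0% of those tested, where 91.2% of all features were higher and 0.836% lower. The median change was 2.12 for members, 2.05 for other ORFs and 1.94 for all features. Scaled to protein-coding genes, 100 members were higher and 33 lower, so the directions of single members hold for the deposited scaling.

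ZRT1 and CHA1 stood highest. ZRT1 read 15.7 and 14 in WT CHX, against 0.948 and 1.03 in WT glucose (3.90 ± 0.37). CHA1, the serine and threonine deaminase gene at the 10th place of the left arm of III, read 1.38 and 1.04, against 0.0749 and 0.0796 (3.90 ± 0.21). The other zinc-regulated members changed by 2.38 ± 0.22 (ADH4), 3.36 ± 0.42 (VEL1) and 3.61 ± 0.34 (YOR387C). YDL242W, of unknown function, changed by 3.80 ± 0.36, YGL262W by 3.80 ± 0.35 and YMR320W by 3.68 ± 0.16. PAU10 read 0.0487 and 0.0419 in WT CHX and is listed at 0 in both WT glucose libraries. Levels of YOL163W and YNR068C were 2.41 ± 0.19 and 3.11 ± 0.17 higher on the log2 scale, and PHO89, low in upf1Δ, read 1.60 and 1.90 in WT CHX, against 0.166 and 0.174 in WT glucose (3.33 ± 0.15).

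In starved cells YML131W changed most with CHX, and YDL242W was among the 6 largest rises both here and in glucose. Between WT starved CHX and WT starved 186 members were higher and 4 lower (78.5% and 1.69%), where 65.8% and 8.31% of all features were, with medians of 1.45 for members and 1.29 for other ORFs. YML131W, similar to medium-chain dehydrogenases, read 12.5 and 11.7 in WT starved CHX, against 0.718 and 0.587 in WT starved (4.21 ± 0.12), and 0.799 and 0.750 in WT CHX. JEN1 read 10.1 and 9.47 in WT starved CHX, against 0.891 and 0.691 in WT starved (3.64 ± 0.14). YDL242W changed by 3.91 ± 0.36, YPL276W by 3.71 ± 0.46 (a value that depends on the added constant, since 1 WT starved library is listed at 0), DSF1 by 3.5 ± 0.20 and the mannitol dehydrogenase gene MAN2 by 3.45 ± 0.18. The 4 that fell were PGA3 (-0.71 ± 0.10), URA1 (-0.57 ± 0.07), the sterol pathway gene ERG13 (-0.56 ± 0.11) and the S-adenosylmethionine permease gene SAM3 (-0.23 ± 0.09), of which SAM3 lost its call when any of the 4 libraries was left out. With snoRNA scaling URA1 (-0.35), ERG13 (-0.34) and SAM3 (-0.008) lost their calls. With protein-coding scaling, 110 members were higher and 36 lower.

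The change with CHX differed between starved and glucose cells for 12 members upward and 118 downward (5.06% and 49.8%), where 2.06% and 60.9% of all features did. YML131W (2.52 ± 0.17), JEN1 (1.64 ± 0.20) and YEL075C (1.28 ± 0.48) had the higher change in starvation. CHA1 read 0.0669 and 0.0442 in WT starved CHX, against 0.0494 and 0.0450 in WT starved, unlike the gap in glucose, a difference of -3.70 ± 0.29. PAU12 differed by -3.32 ± 0.61, and PAU10, listed at 0 in 1 WT starved CHX and both WT glucose libraries, by a fitted -3.66 ± 0.55 that depends on the added constant. YEL075C lost its call without WT starved library 1 (1.04), WT starved CHX library 2 (1.05), WT CHX library 2 (1.07) or WT glucose library 1 (1.12). With protein-coding scaling, 52 members had a higher and 43 a lower signed change with CHX in starvation.

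Loss of Xrn1 in glucose left 221 members higher and 1 lower than in WT (93.2% and 0.422%), where 90.5% and 0.483% of all features were, and the median change was 2.27 for members, 2.02 for other ORFs and 2.04 for all features. On the protein-coding scale 117 were higher and 36 lower. The 6 members with the largest change all lay on chromosome XI: MCH2, similar to monocarboxylate permeases (5.17 ± 0.21), FRE2 (4.95 ± 0.15), FLO10 (4.73 ± 0.14), PCK1, the phosphoenolpyruvate carboxykinase gene (4.69 ± 0.16), NFT1 (4.65 ± 0.15) and YKR104W (4.56 ± 0.23). FRE2 read 1.25 and 1.08 in xrn1Δ, against 0.0336 and 0.0349 in WT, and PCK1 read 0.731 and 0.649, against 0.0182 and 0.0294.

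**Figure D5:**
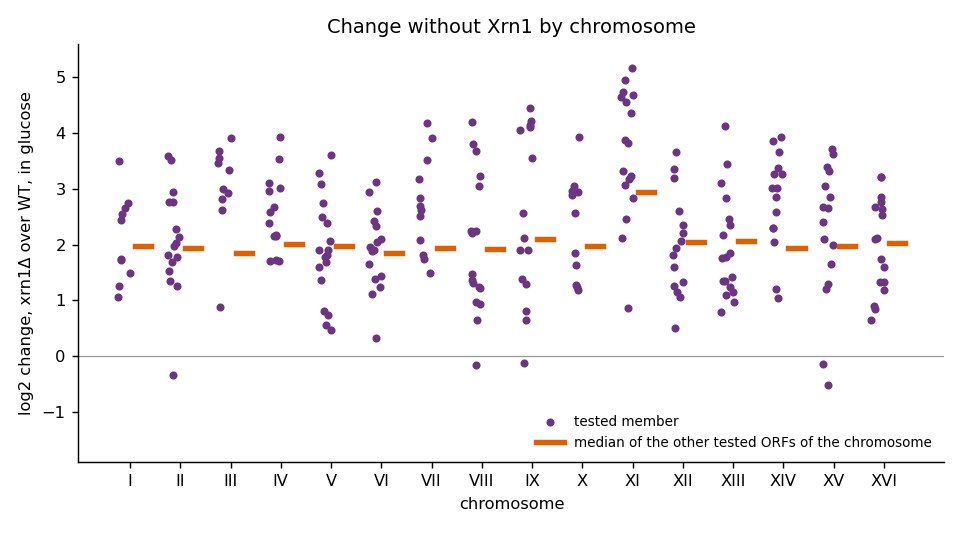
Log2 change between xrn1Δ and WT cells in glucose (y axis) for each tested member (points), by chromosome (x axis), with bars for the median of the other tested ORFs of that chromosome. The bar of XI stands at 2.94, the other 15 between 1.84 and 2.10.

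ORFs along chromosome XI stood higher in xrn1Δ than those of other chromosomes. Its 308 other ORFs had a median change of 2.94, while those of the other 15 chromosomes had medians from 1.84 to 2.10, and the 17 tested members of XI had a median of 3.82, against 2.17 for the 220 tested elsewhere. In upf1Δ the other ORFs of XI had a median of -0.10, near the -0.09 of all other ORFs. Whether xrn1Δ cells held more copies of chromosome XI was not tested. Away from XI 204 members were higher and 1 lower. The largest change there was that of YIR042C on the right arm of IX, which read 0.659 and 0.521 in xrn1Δ, against 0.0301 and 0.0181 in WT (4.44 ± 0.20). YNR068C changed by 3.94 ± 0.17, ZRT1 by 3.91 ± 0.37 and YOL163W by 3.62 ± 0.19, and on XI SIR1 changed by 3.82 ± 0.15 and COS9 by 3.22 ± 0.11. PHO89 was the 1 member called lower: it read 0.144 and 0.123 in xrn1Δ, against 0.166 and 0.174 in WT (-0.35 ± 0.15), and lost its call without xrn1Δ glucose library 2 (-0.24) or either WT glucose library.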

How the data were processed

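Strand-specific total RNA, with ribosomal RNA depleted and spike-in RNA added, was measured in 16 libraries of 8 groups, per the labels' protocols. The authors deposited a signal, the normalized density in reads per nucleotide of each feature; the scaling between libraries is not given in the sources used here. The submitters' processing notes name Trim Galore, HISAT2 2.2.0, featureCounts 2.0.0, DESeq2 and build R64, with no role given. Depth was read from the steps between values: 6.65 to 32.7 megareads on ORFs, with 65.6% to 85.6% of low ORFs whole within 0.02, so no count test was run. The 8 mean columns were not used.

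Values were tested as log2(value + 0.00364), the 5th percentile of positive values, with limma 3.58.1 (R 4.3.3; trend on) over 11606 of 11997 features with a mean at or above that value, with 1 mean per group over 16 libraries, 8 residual degrees of freedom and Benjamini-Hochberg adjustment over all features tested. The fit was tested on simulated data. Members are the 10 highest-numbered ORFs of each arm; members and lists were chosen with earlier results of these data known. Named are the 6 largest rises and falls per comparison that passed with groups that do not overlap, the 3 largest each way per interaction, and members of lists; BSC5, EMA35, YCR099C, YCR101C, GIT1, NFT1, YKR104W, YIR042C, the zinc-regulated genes and other named genes outside these were chosen after their values were seen. Replicates are biological per the design text. Repeats were windows of 50 bases found elsewhere in R64, either strand. Sequences and roles are from RefSeq (R64). Python 3.11.15, numpy 2.4.6, pandas 2.3.3 and matplotlib 3.10.9 were used. Alternatives changed the constant, filter, scaling, samples, replicate block, libraries and choice of members.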

Additional observations from a re-analysis of the deposited data

Results flagged for a closer look

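These responses differed between conditions or strains by limma's interaction test, with Benjamini-Hochberg adjustment over 11606 features; each value is a difference of log2 changes.

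The change with CHX was larger in starved than in glucose WT cells for YML131W (2.52), JEN1 (1.64) and YEL075C (1.28), and smaller for CHA1 (-3.70), PAU10 (-3.66) and PAU12 (-3.32).

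The change on glucose loss was lower in upf1Δ than in WT for YPS5 (-2.19), YCR101C (-2.18) and YNR068C (-1.93).

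The change on glucose loss was higher in xrn1Δ than in WT for STL1 (2.96), DSF1 (1.25) and GAB1 (1.02), and lower for HXK1 (-1.70), YCR101C (-1.26) and YPS5 (-1.22). WT glucose libraries enter each of these differences. Under some of the settings described above, the calls of YEL075C with CHX, and of DSF1, GAB1 and YPS5 in xrn1Δ, were lost.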

How the results depend on the processing

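Of 204 counts of members recomputed, 156 stayed within 1.5 times, and of 1742 recomputed changes of named members 1666 kept direction and call, 75 lost and 1 gained the call (SUL1 in upf1Δ, -0.30), and 0 reversed. Counts below are higher, then lower; where the cause of a move is not the construction itself, the cause was not tested. Scaled to protein-coding genes: starvation in WT 77 and 29, CHX in glucose 100 and 33, CHX in starvation 110 and 36, upf1Δ 23 lower, xrn1Δ 117 and 36, starvation in upf1Δ 29 and 33, starvation in xrn1Δ 23 and 1, and the interactions of starvation with CHX 52 and 43, with upf1Δ 1 higher and with xrn1Δ 41 lower. Scaled to snoRNAs: starvation in WT 2 lower, CHX in starvation 1 lower, upf1Δ 1 lower, xrn1Δ 0 lower, starvation in xrn1Δ 6 higher, and the interactions with CHX 7 higher, with upf1Δ 75 lower and with xrn1Δ 1 and 7. With the 5 outermost ORFs of each arm, which are fewer: starvation in WT 10 and 13, CHX in glucose 89 higher, CHX in starvation 75 and 0, upf1Δ 61 and 1, xrn1Δ 96 and 0, starvation in upf1Δ 3 and 44, starvation in xrn1Δ 4 higher, and the interactions with CHX 5 and 47, with upf1Δ 10 lower and with xrn1Δ 4 and 3. The replicate block gave upf1Δ 13 lower and starvation in xrn1Δ 16 higher. Replicate differences of compared groups correlated at -0.0532 to 0.0816 over the features tested. Such values cannot show whether libraries of the same number were prepared together. The compared groups alone gave starvation in xrn1Δ 23 higher and the upf1Δ interaction 9 lower, and a constant 10 times larger gave the xrn1Δ interaction 5 lower. Leaving out each library gave starvation in WT 24 to 30 and 31 to 42 (lowest without WT starved library 2), CHX in glucose 216 to 220 and 0, CHX in starvation 175 to 183 and 3 to 4, upf1Δ 107 to 126 and 3 (without upf1Δ glucose library 2) to 16 (without library 1), xrn1Δ 209 to 212 and 0 to 1, starvation in upf1Δ 8 to 11 and 81 (without upf1Δ glucose library 1) to 127, starvation in xrn1Δ 6 to 7 and 0, and the interactions with CHX 7 to 15 and 92 to 125, with upf1Δ 0 and 10 (without WT starved library 1) to 53 (without upf1Δ glucose library 2), and with xrn1Δ 21 to 30 and 7 to 11. Away from chromosome XI, an alternative chosen after seeing the data, xrn1Δ gave 204 and 1, and with members at most 50% repeated, likewise chosen, upf1Δ gave 89 and 6. Depth limits the lowest members: 71 of 260 annotated members had under 10 reads in both WT glucose libraries.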
